A study of Homo sapiens with 27 samples.

Results

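The genes described here are 10 mRNAs of the NRF2 antioxidant and iron programme (NFE2L2, HMOX1, NQO1, GCLM, GCLC, TXNRD1, SRXN1, SLC7A11, FTH1 and FTL). They were chosen by name out of 57905 gene identifiers, with earlier results of these data known. All 10 symbols were found in the table through GENCODE release 44, and all 10 passed the filter on low values in every comparison. The cells were U937, a human myeloid leukaemia line, and the study asked how matrine, an alkaloid of Sophora flavescens, changes gene expression in such cells. RNA-seq was done on 3 control libraries, 3 libraries after 30 min of matrine and 3 libraries after 24 h of matrine, with matrine at 0.8 mg/ml in both treated groups and ddH2O as its vehicle. The same 3 controls served both times, their time in culture is not given in the sources used here, and 24 h of treatment and time in culture therefore cannot be told apart. The series holds 27 samples, and those of HL-60 and K562 are not analysed here.

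NRF2, the protein of NFE2L2, is a transcription factor that KEAP1 holds in the cytoplasm and hands to the proteasome. When electrophiles or oxidants modify KEAP1, NRF2 enters the nucleus, pairs with a small MAF protein and binds antioxidant response elements near genes for glutathione synthesis, the thioredoxin system, quinone reduction, heme breakdown and iron storage. Both ferritin mRNAs are also held back at translation by iron regulatory proteins, which bind a stem-loop near the start of the mRNA when iron is scarce. In myeloid cells, which handle much heme and iron and produce oxidants, this programme is a textbook defence against peroxide and free iron.

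Antioxidant response elements share the letters TGACNNNGC, and these were searched on both strands in promoter windows of 300 bases (250 before to 50 after each start) from RefSeq on GRCh38.p14. The letters stand in 13.35% of the 35116 windows of that table, and where the free positions allow they overlap the motif of AP-1 factors. Of the 10 genes, 7 had 9 windows in the table, and GCLM and TXNRD1 held the letters. FTH1, HMOX1 and SLC7A11 had no entry. In the 24 h results below, GCLM had lower mRNA by 2.65-fold and TXNRD1 by 1.29-fold. Of the genes whose windows lacked these letters, SRXN1 was 1.49-fold lower and GCLC had a log2 fold change of -0.09. NFE2L2, NQO1 and FTL were higher, by 1.13-fold, 1.17-fold and 1.13-fold. A link between the letters and the direction of change was not tested. The matches describe letters and do not measure binding, and sequence outside the windows was not searched. Matched letters are in capitals and each sequence is written 5′ to 3′ on the strand of the match. Positions of matches are counted along the gene strand from the RefSeq start, which for GCLM differs from the GENCODE start given below. The first is at chr1:93909446-93909474 on the plus strand, opposite to GCLM, with its match beginning at -34. Those at chr12:104215670-104215698 (plus strand, -99) and chr12:104215761-104215789 (minus strand, -8) lie at the first start of TXNRD1, and the one at chr12:104286920-104286948 (minus strand, -102) lies at a second start.
GCLM: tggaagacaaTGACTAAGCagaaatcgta
TXNRD1 first start, plus: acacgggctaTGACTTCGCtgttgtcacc
TXNRD1 first start, minus: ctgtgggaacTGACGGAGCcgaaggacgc
TXNRD1 second start: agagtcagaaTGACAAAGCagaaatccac
The FTL window reaches into the transcript and holds the loop letters of an iron responsive element, CAGTGN, at +38 on the gene strand (chr19:48965327-48965356, plus strand). Those letters stand on the gene strand in 32.08% of all windows, so the match is a description of the site and not a measure of binding.
FTL: gggtctgtctcttgcttcaaCAGTGTttgg

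The total per library was between 17314931 and 21930018 counts, and 4.99% to 5.28% of these came from the 10 most abundant genes. Replicates of a group differed by more than sampling noise, so each library was kept as a sample; no label says that they came from separate cultures, and p-values measure only the spread between these libraries. Of 12 myeloid markers, 8 had a mean FPKM (fragments per kilobase of gene, scaled to library depth) above 1. The summed level of the 12 was 465 to 468 FPKM in control, 452 to 473 after 30 min and 421 to 428 after 24 h. LYZ, the largest of them, went from a mean of 292 FPKM in control to 244 FPKM at 24 h. Others moved in both directions, such as CD4 from 28.6 to 43.7 FPKM and SPI1 from 67.6 to 56.0 FPKM. These markers were named after their values were seen. Of 8 erythroid markers 1 passed that level, of 6 T and B cell markers 2, of 4 epithelial markers 0 and of 3 fibroblast markers 0. HBG1, HBE1, CD3E, CD3D, CD8A, MS4A1, EPCAM and DCN were among those at 0 in all 9 libraries. A lower level in bulk RNA cannot tell fewer cells carrying an mRNA from less of it per cell.

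After 24 h of matrine, FTH1 mRNA rose 2.52-fold and GCLM mRNA fell 2.65-fold, and the other 8 genes stayed within 1.5-fold of control. After 30 min none of the 10 was called. A gene was called at a Benjamini-Hochberg adjusted p below 0.05 in edgeR's quasi-likelihood test and at least a 1.5-fold difference, the limits that the study names. At 24 h, 1 of the 10 genes was called higher, beside 15.1% of the 12035 genes tested, and 1 was called lower, beside 11.2%. By the adjusted p alone 7 of the 10 passed, beside 63.3% of all genes tested. Against these shares of all genes, the numbers called among the 10 are no result about the 10 as a group. Their median log2 fold change was 0.04, and that of all tested genes was 0.01.

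At 30 min, 0 of the 10 genes were called in either direction, beside 0.0949% of 11587 genes called higher and 0.544% called lower. One of the 10, GCLM, had an unadjusted p below 0.05, and DESeq2 and limma on log2(FPKM + 0.1) also called 0. By the adjusted p alone 1 of the 10 passed, beside 1.62%. In the direct comparison of 24 h with 30 min, FTH1 was the 1 gene called higher, beside 15.4% of 11981 genes, and GCLM the 1 called lower, beside 11.5%. There 7 of the 10 passed the adjusted p alone, beside 65.1%. Both 24 h comparisons share the 24 h libraries and are not independent.

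**Figure D1:**
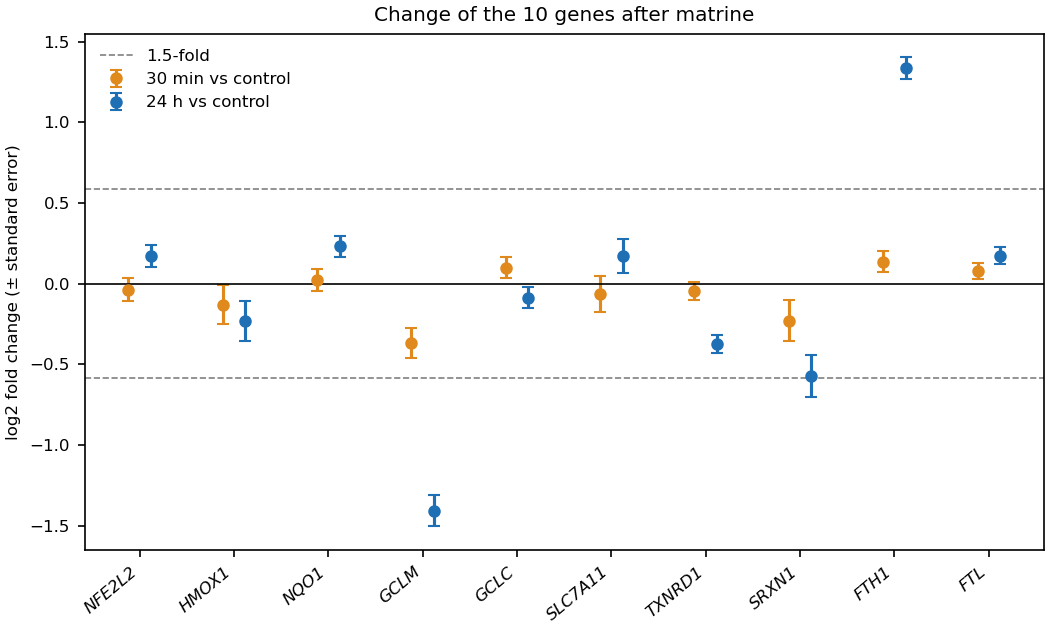
Log2 fold change (vertical axis) of each of the 10 genes (horizontal axis) after 30 min and after 24 h of matrine against the same 3 controls, as points with bars of 1 standard error from edgeR; dashed lines mark 1.5-fold. At 24 h, FTH1 at 1.34 and GCLM at -1.41 lie beyond the dashed lines, SRXN1 at -0.57 lies just inside the lower one, and all 30 min points lie inside.

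The order of mRNA levels, compared per length as FPKM, spanned from FTL, with a mean of 4242 FPKM in control, down to SLC7A11, with 2.72 FPKM. In control, FTH1 stood second, followed by TXNRD1, NFE2L2, NQO1, GCLM, GCLC, SRXN1, HMOX1 and SLC7A11. Only SRXN1 and HMOX1 overlapped as neighbours in that order in control. At 24 h, GCLM stood below GCLC with no overlap, NFE2L2 and NQO1 overlapped, and HMOX1, SRXN1 and SLC7A11 each overlapped the next.

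**Figure D2:**
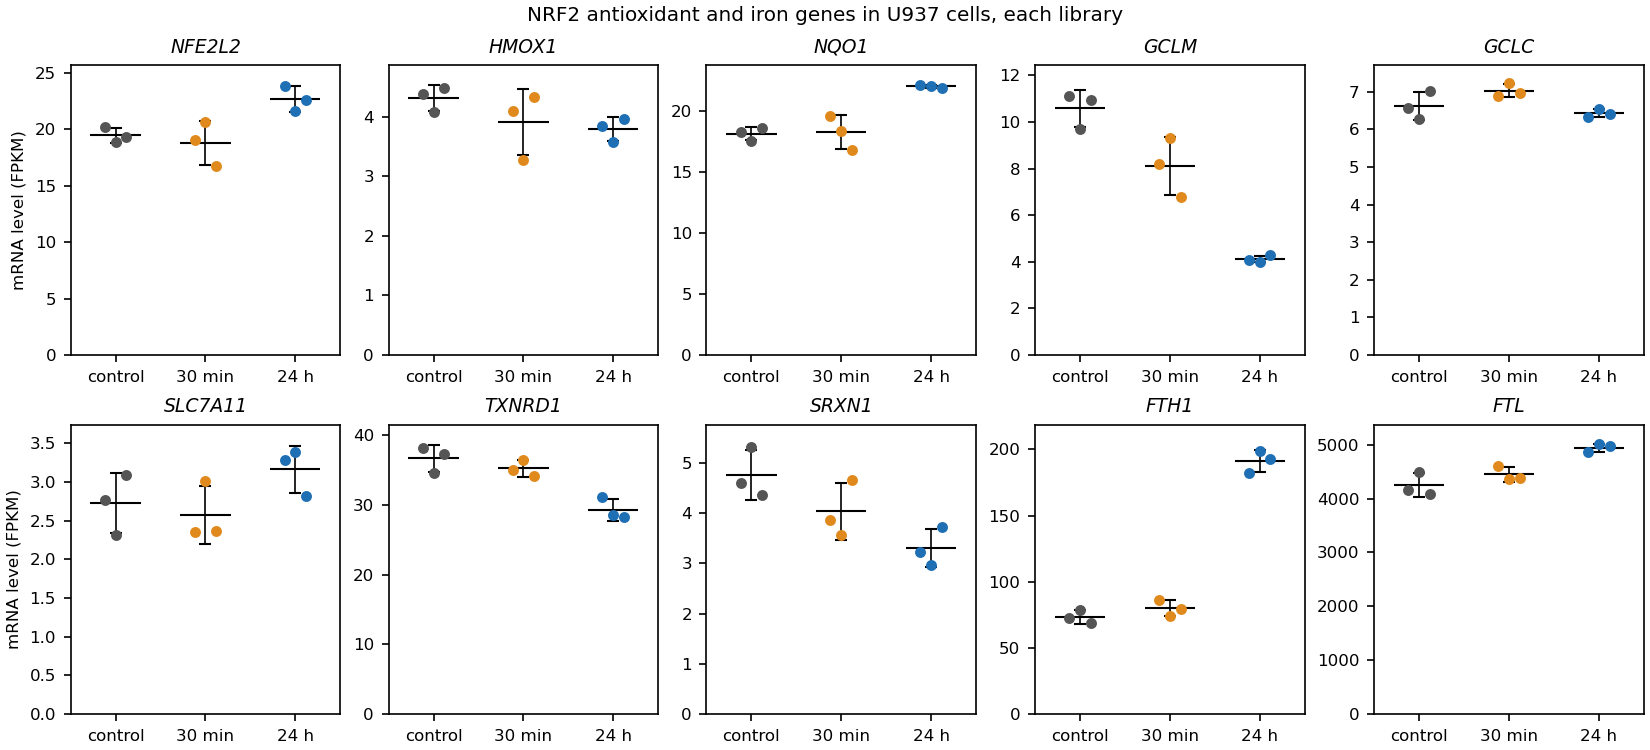
mRNA level in FPKM (vertical axes, from 0) of each of the 10 genes in 3 control, 3 matrine 30 min and 3 matrine 24 h libraries; points are libraries, horizontal lines means and bars 1 SD. FTH1 is the gene whose 24 h libraries (182 to 199 FPKM) stand far above the others, and GCLM the gene whose 24 h libraries (4.0 to 4.27 FPKM) stand far below.

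NFE2L2 (ENSG00000116044) encodes NRF2 itself. Its mRNA level was 20.2, 18.9 and 19.3 FPKM in the 3 controls, 19.1, 20.6 and 16.7 FPKM after 30 min and 23.9, 21.6 and 22.6 FPKM after 24 h. Every 24 h library lay above every control, while the 30 min libraries overlapped the controls. The log2 fold change at 24 h was 0.17 with a standard error of 0.0685 (1.13-fold, edgeR adjusted p = 0.032), far under 1.5-fold, and with TMM factors taken from all genes with a count the adjusted p was 0.19 (range over 17 alternatives 0.0063 to 0.27). At 30 min it was -0.04 with a standard error of 0.0703 (adjusted p = 0.91). NRF2 is regulated above all by protein turnover, which mRNA levels do not show. In GENCODE release 44 the gene spans chr2:177218667-177392756 on the minus strand of GRCh38, and its exons overlap those of AGPS and HNRNPA3 on the other strand. Those genes reached counts of 5602 and 25654 in a library against 1974 for the lowest NFE2L2 library, and since the strand setting of the counting is not given, reads of the overlapping parts cannot be assigned to one gene. Over the 9 libraries, the genes whose centred log2 CPM lay nearest to that of NFE2L2 were PCMTD2, at a Euclidean distance of 0.107, CAPN7, at 0.121, and CKAP2, at 0.131, out of 11899 genes. This is a description of profiles that share libraries and scaling.

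GCLM, GCLC and SLC7A11 make glutathione. SLC7A11 is the cystine importer of system xc-, GCLC is the catalytic subunit of glutamate-cysteine ligase, the rate-limiting enzyme, and GCLM is its modifier subunit, which raises the activity of the catalytic one. Of the 3, the modifier fell while the catalytic subunit and the importer were not called.

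GCLM (ENSG00000023909, chr1:93885199-93909456, minus strand) had 11.1, 9.68 and 10.96 FPKM in control, 8.21, 9.31 and 6.80 FPKM after 30 min, and 4.08, 4.0 and 4.27 FPKM after 24 h. No groups overlapped: each 30 min library lay below each control, and each 24 h library lay below each 30 min library. In counts, GCLM had 1007 to 1240 in control libraries and 438 to 501 in 24 h libraries. At 24 h the log2 fold change was -1.41 with a standard error of 0.0954, a 2.65-fold fall (adjusted p = 6.3e-11). Under 17 alternative settings it lay between -1.48 and -1.18, with adjusted p from 3e-62 to 3.8e-06, and was called in each.

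At 30 min the log2 difference of GCLM was -0.37 with a standard error of 0.0931, or 1.29-fold (adjusted p = 0.047). It was not called, since it was under 1.5-fold, and its adjusted p ranged from 0.0027 to 0.25 over the alternatives. Leaving out 30 min replicate 3, the lowest library, brought the log2 difference to -0.25 (adjusted p = 0.13), and leaving out 30 min replicate 1, control replicate 1 or control replicate 3 gave adjusted p of 0.12, 0.25 and 0.17. Between 30 min and 24 h the log2 fold change was -1.06 with a standard error of 0.0961 (adjusted p = 5.1e-09).

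GCLC (ENSG00000001084, chr6:53497341-53616970, minus strand) had 6.57, 6.27 and 7.02 FPKM in control, 6.90, 7.22 and 6.96 FPKM after 30 min and 6.34, 6.54 and 6.42 FPKM after 24 h. The 24 h libraries fell within the range of the controls, with a log2 fold change of -0.09 and a standard error of 0.0650 (adjusted p = 0.25). At 30 min the value was 0.10 with a standard error of 0.0648 (adjusted p = 0.63). Against 30 min, all 24 h libraries were lower, by 1.15-fold (adjusted p = 0.0083). The antisense gene GCLC-AS1, whose exons overlap those of GCLC, reached a count of 13 at most, against 1027 for the lowest GCLC library.

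SLC7A11 (ENSG00000151012, chr4:138164097-138242349, minus strand), with the lowest mean of the 10 in each group, had 2.76, 2.32 and 3.09 FPKM in control, 2.35, 3.01 and 2.36 FPKM after 30 min and 3.28, 3.39 and 2.82 FPKM after 24 h. All 3 groups overlapped. The log2 fold change was 0.17 with a standard error of 0.107 at 24 h (adjusted p = 0.17) and -0.07 with a standard error of 0.111 at 30 min (adjusted p = 0.89). Neither could be told from the spread between libraries.

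TXNRD1 and SRXN1 serve the thioredoxin branch. TXNRD1 is the cytosolic thioredoxin reductase, which passes electrons from NADPH to thioredoxin, and SRXN1 is sulfiredoxin, which restores peroxiredoxins that peroxide has over-oxidized. Both had lower mRNA levels at 24 h by the adjusted p, and neither reached 1.5-fold.

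TXNRD1 (ENSG00000198431, chr12:104215779-104350307, plus strand) had 38.2, 34.5 and 37.3 FPKM in control, 35.0, 36.5 and 34.1 FPKM after 30 min and 31.1, 28.6 and 28.2 FPKM after 24 h. Every 24 h library lay below every other library, and the 30 min libraries overlapped the controls. At 24 h the log2 fold change was -0.37 with a standard error of 0.0562, or 1.29-fold lower (adjusted p = 7e-06). It lay between -0.44 and -0.31 over the alternatives and its adjusted p was at most 0.00068, so the direction was stable and the size stayed under the threshold. At 30 min it was -0.05 with a standard error of 0.0564 (adjusted p = 0.84).

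SRXN1 (ENSG00000271303, chr20:646615-653200, minus strand) had 4.6, 5.32 and 4.37 FPKM in control, 3.87, 3.57 and 4.67 FPKM after 30 min and 3.23, 2.97 and 3.72 FPKM after 24 h. The 24 h libraries were all below the controls, and the 30 min libraries spanned the gap and overlapped both. At 24 h the log2 fold change was -0.57 with a standard error of 0.131, or 1.49-fold lower (adjusted p = 0.00066), which is just inside the limit. With DESeq2 size factors it was -0.63, with no filter or with TMM factors from all genes with a count -0.64, and without 24 h replicate 3, control replicate 1 or control replicate 3 it was -0.69, -0.61 and -0.64, each of which passed 1.5-fold; the adjusted p lay between 2.3e-06 and 0.0067 over the alternatives. In counts the gene had 163 to 278 per library, the fewest after HMOX1, and its standard error was the largest of the 10.

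NQO1 (ENSG00000181019, chr16:69706996-69726668, minus strand) reduces quinones by a pair of electrons and is a widely used readout of NRF2 activity. Its mRNA level was 18.3, 17.6 and 18.6 FPKM in control, 19.6, 18.4 and 16.8 FPKM after 30 min and 22.1, 22.1 and 21.9 FPKM after 24 h. The 24 h libraries lay close together and above all 6 others. The log2 fold change at 24 h was 0.23 with a standard error of 0.0676, or 1.17-fold (adjusted p = 0.0054), and lay between 0.16 and 0.28 over the alternatives, with an adjusted p of up to 0.09. At 30 min it was 0.02 with a standard error of 0.0685 (adjusted p = 0.95).

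HMOX1 (ENSG00000100292, chr22:35380361-35394214, plus strand) is heme oxygenase 1, which opens heme and frees its iron, and is strongly induced by heme and oxidants in macrophages. It had 4.38, 4.08 and 4.49 FPKM in control, 4.10, 3.28 and 4.34 FPKM after 30 min and 3.85, 3.57 and 3.96 FPKM after 24 h. The 24 h libraries all lay below the controls, under the fold limit of 1.5. The log2 fold change was -0.23 with a standard error of 0.124 at 24 h (1.18-fold, adjusted p = 0.11, range over the alternatives 0.039 to 0.28) and -0.13 with a standard error of 0.122 at 30 min (adjusted p = 0.78). HMOX1 had 162 to 219 counts per library. The nearest profiles over the 9 libraries were those of DGAT2, at a distance of 0.230, TRIM35, at 0.242, and PAQR4, at 0.250.

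FTH1 and FTL encode the heavy and light subunits of ferritin, the shell that stores iron. The heavy subunit carries the ferroxidase site that oxidizes iron on entry, and the light subunit helps the iron core form. In the deposited FPKM values the light chain mRNA stood far above the heavy chain mRNA. The effect of reads with more than 1 match on these levels was not tested. At 24 h the heavy chain passed 1.5-fold while the light chain was 1.13-fold higher.

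FTH1 (ENSG00000167996, chr11:61959718-61967634, minus strand) had 72.7, 78.7 and 68.7 FPKM in control, 86.3, 74.4 and 79.2 FPKM after 30 min and 182, 199 and 193 FPKM after 24 h. The 24 h libraries lay far above the others, and the 30 min libraries overlapped the controls. The mean went from 73.3 ± 5.01 FPKM (SD, n = 3) in control to 191 ± 8.46 FPKM (SD, n = 3) at 24 h. The log2 fold change was 1.34 with a standard error of 0.0685, or 2.52-fold (adjusted p = 8.1e-13), and lay between 1.27 and 1.39 under 17 alternative settings. At 30 min it was 0.14 with a standard error of 0.0672 (adjusted p = 0.47). From 30 min to 24 h it was 1.18 with a standard error of 0.0679, or 2.26-fold (adjusted p = 5.1e-12).

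FTL (ENSG00000087086, chr19:48965309-48966879, plus strand) had 4149.96, 4496 and 4079.98 FPKM in control, 4609, 4353 and 4382 FPKM after 30 min and 4862, 5006 and 4966 FPKM after 24 h. Every 24 h library lay above every other, and 30 min and control overlapped. At 24 h the log2 fold change was 0.17 with a standard error of 0.0515, or 1.13-fold (adjusted p = 0.0061), and with TMM factors from all genes with a count the adjusted p was 0.088, the highest of a range that began at 0.00022. At 30 min it was 0.08 with a standard error of 0.0504 (adjusted p = 0.61).

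FTH1 made up 1.72%, 1.72% and 1.66% of the ferritin FPKM (FTH1 plus FTL) in the controls. The 30 min libraries had 1.84%, 1.68% and 1.77%, and the 24 h libraries 3.61%, 3.82% and 3.74%. The means were 1.70% ± 0.0368 in control, 1.76% ± 0.0787 after 30 min and 3.73% ± 0.106 after 24 h (SD, n = 3 each). The 24 h share exceeded the control by 2.03 percentage points with no overlap between libraries, and the two-sided exact permutation test gave p = 0.1, the smallest that 3 against 3 libraries allow. The 30 min share differed from control by 0.0656 percentage points (two-sided exact permutation p = 0.3). FTL exceeded FTH1 by 57.1 to 59.4 times in control libraries and by 25.2 to 26.7 times in 24 h libraries, on the FPKM scale. In counts, FTH1 made up 3.75% to 3.89% of ferritin in control libraries and 7.98% to 8.42% in 24 h libraries. The size of the ratio thus depends on the gene lengths behind FPKM, whose annotation is not given in the sources used here. The 2 genes together took 0.372% to 0.411% of all counts in control and 0.464% to 0.480% at 24 h.

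**Figure D3:**
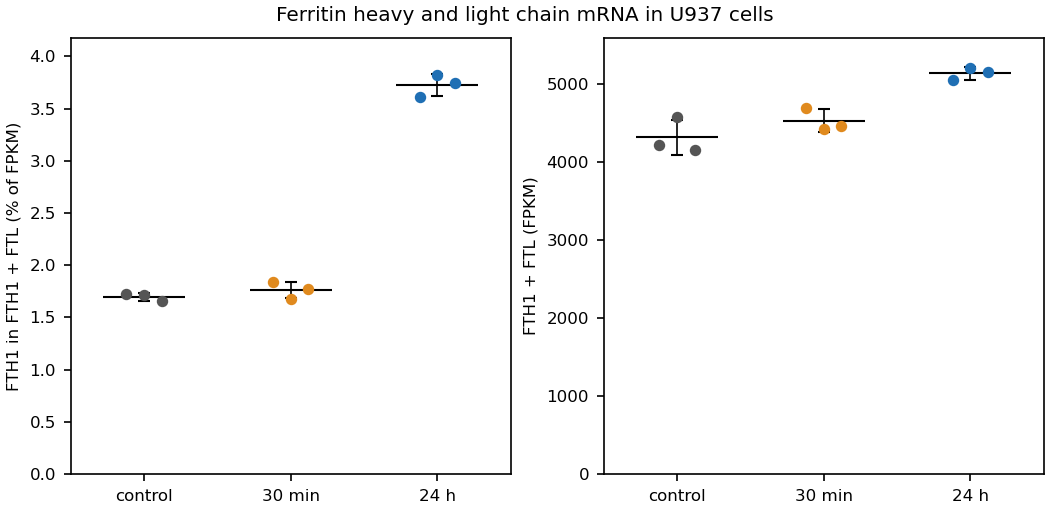
Left, FTH1 as a percentage of the summed FTH1 and FTL FPKM per library; right, that sum in FPKM; points are the 3 libraries of control, matrine 30 min and matrine 24 h, lines means and bars 1 SD, both axes from 0. The share lies at 1.66% to 1.84% in the control and 30 min libraries and at 3.61% to 3.82% at 24 h.

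Processed copies of both ferritin genes exist in the genome, and the treatment of reads with more than 1 match is not given in the sources used here. The table lists 25 FTH1 and 16 FTL copies, of which 17 had a count in any library. No copy exceeded 18 counts in a library, and the FTH1 copies together reached at most 0.938% of the FTH1 counts. If reads with more than 1 match were dropped, low counts of the copies do not show how many FTH1 or FTL reads were lost. The effect of that handling on the FTH1 and FTL levels was not tested. BEST1, whose exons overlap those of FTH1 on the other strand, had 114 counts at most, against 2415 in the lowest FTH1 library.

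Around the 10 genes, 132 of 134 listed genes of the same pathways were found in the table, and 114 were tested at 24 h. Of these, 19 rose (16.7%, beside 15.1% of all genes) and 13 fell (11.4%, beside 11.2%), with a median log2 fold change of -0.01. At 30 min 0 of the 114 were called by edgeR, beside 0.0949% of all genes tested called higher and 0.544% called lower. At that time 8 had an unadjusted p below 0.05, and DESeq2 and limma also called 0. From 30 min to 24 h, 19 rose (16.7%, beside 15.4% of all genes tested) and 15 fell (13.2%, beside 11.5%).

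Of 11 regulators of NRF2, 2 rose (18.2%, beside 15.1% of all genes tested) and 1 fell (9.09%, beside 11.2%) at 24 h. SQSTM1, the autophagy receptor that draws KEAP1 away from NRF2, rose from 22.5, 23.2 and 22.9 FPKM in control to 43.5, 45.4 and 46.4 FPKM (log2 fold change 0.93, standard error 0.0537, adjusted p = 5.3e-12). Of the small MAF partners, MAFK fell by 0.86 on the log2 scale (adjusted p = 1.3e-06), and MAFF rose by 0.59 (adjusted p = 0.0012), a call lost under 7 of 16 alternatives. MAFG, the most abundant of them and named after its values were seen, was not called. Its mean was 25.6 FPKM in control and 29.9 FPKM at 24 h (log2 fold change 0.18, adjusted p = 0.015). KEAP1, named for its role after its values were seen, had 46.6 ± 2.80 FPKM in control and 40.4 ± 0.733 FPKM at 24 h (SD, n = 3; log2 fold change -0.25, adjusted p = 0.0024), under the fold limit.

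Of 20 tested genes of glutathione synthesis and use, 5 rose (25%, beside 15.1% of all genes tested) and 2 fell (10%, beside 11.2%), and DESeq2 called 4 higher and 2 lower. OPLAH, which returns 5-oxoproline to glutamate, rose by 1.31, ETHE1, a mitochondrial persulfide dioxygenase, by 0.85 and MGST3, a microsomal glutathione transferase, by 0.77 on the log2 scale. CHAC2, which breaks glutathione down, fell by 1.01 and GLRX3 by 0.74.

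Of 18 tested genes of the thioredoxin, peroxiredoxin and peroxide removal list, 2 rose (11.1%, beside 15.1% of all genes tested) and 1 fell (5.56%, beside 11.2%), with a median of -0.24 beside 0.01 over all genes. SESN2, a sestrin induced by several stresses, rose from 4.01, 4.25 and 4.25 FPKM in control to 14.8, 15.0 and 16.3 FPKM (3.57-fold, adjusted p = 3.2e-13). At 30 min it had 4.2, 4.26 and 4.93 FPKM. PRDX5 rose by 0.85 on the log2 scale, and SOD1, the cytosolic superoxide dismutase, fell by 0.67. TXN and PRDX1, partners of TXNRD1 and SRXN1 named for that role after their values were seen, were lower at 24 h but under 1.5-fold, with log2 differences of -0.47 (adjusted p = 2.7e-07) and -0.56 (adjusted p = 1.6e-07).

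Of 11 tested genes on a list of NADPH supply, 3 rose (27.3%, beside 15.1% of all genes tested) and 1 fell (9.09%, beside 11.2%). Only mRNA was measured, and the NADPH output of the listed enzymes was not. Among these, PGD of the pentose phosphate pathway rose 2.26-fold and IDH1, the cytosolic isocitrate dehydrogenase, 1.94-fold, while ME2, a mitochondrial malic enzyme, fell by 0.67 on the log2 scale. Of 12 detoxifying enzymes and transporters, 2 rose (16.7%, beside 15.1% of all genes tested) and 2 fell (16.7%, beside 11.2%). EPHX1 (0.84) and UGDH (0.62) rose and ABCC4 (-0.88) and CBR1 (-0.79) fell, on the log2 scale, and the call of UGDH was lost under 3 of 17 alternatives.

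Genes of heme and iron moved in both directions. Of 14 heme genes, 3 rose (21.4%, beside 15.1% of all genes tested) and 1 fell (7.14%, beside 11.2%). ALAS1, which catalyses the first step of heme synthesis, rose by 0.81, ALAD by 0.73 and PPOX by 0.62 on the log2 scale. HMOX2, the constitutive heme oxygenase, fell by 0.64. The call of PPOX was lost under 6 of 16 alternatives and that of HMOX2 under 1 of 17. Of 13 iron uptake, storage and export genes, 2 rose (15.4%, beside 15.1% of all genes tested) and 1 fell (7.69%, beside 11.2%). TFRC, the transferrin receptor, rose from 42.6, 38.2 and 42.2 FPKM in control to 89.6, 90.6 and 89.1 FPKM (2.12-fold, adjusted p = 4.9e-13). SLC40A1, the iron exporter ferroportin, rose 1.71-fold from a low level of 1.92 ± 0.182 FPKM (SD, n = 3), and SLC39A14, an importer of iron not bound to transferrin, fell 2.19-fold. FTH1 thus rose beside TFRC, whose product brings iron into the cell, and SLC40A1, whose product exports it.

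Of 17 genes of iron-sulfur cluster assembly, 0 rose, beside 15.1% of all genes tested, and 4 fell (23.5%), beside 11.2%, with a median of -0.20 beside 0.01 over all genes. DESeq2 called 0 higher and 4 lower and limma 0 higher and 3 lower, and 2 were higher at an unadjusted p below 0.05 in edgeR. Among them, BOLA3 fell by 0.79 (adjusted p = 2.4e-07) and CIAPIN1 by 0.66 (adjusted p = 3.1e-08) on the log2 scale.

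**Figure D4:**
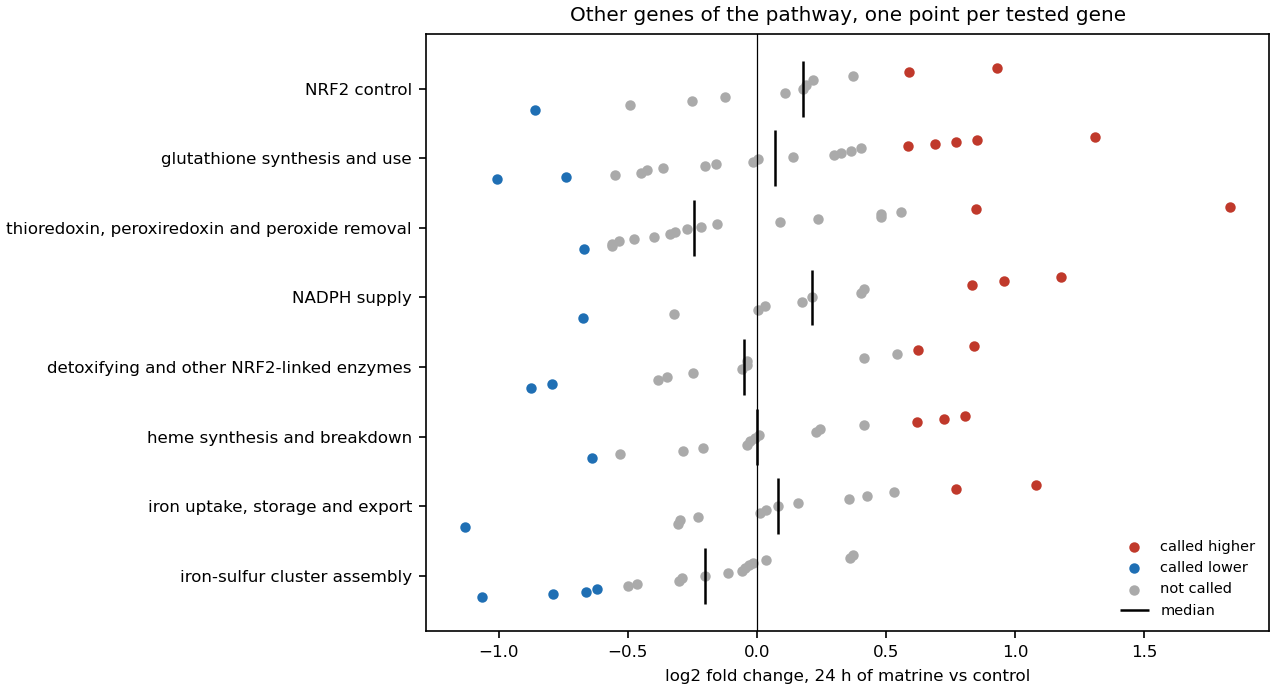
Log2 fold change at 24 h against control (horizontal axis) for each tested gene of the 8 pathway lists (vertical axis, 1 row per list); red points were called higher, blue lower and grey not called, and a vertical bar marks each list's median. Each list has points on both sides of 0, from SESN2 at 1.84 to SLC39A14 at -1.13, and iron-sulfur cluster assembly is the list with no red point.

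**Figure D5:**
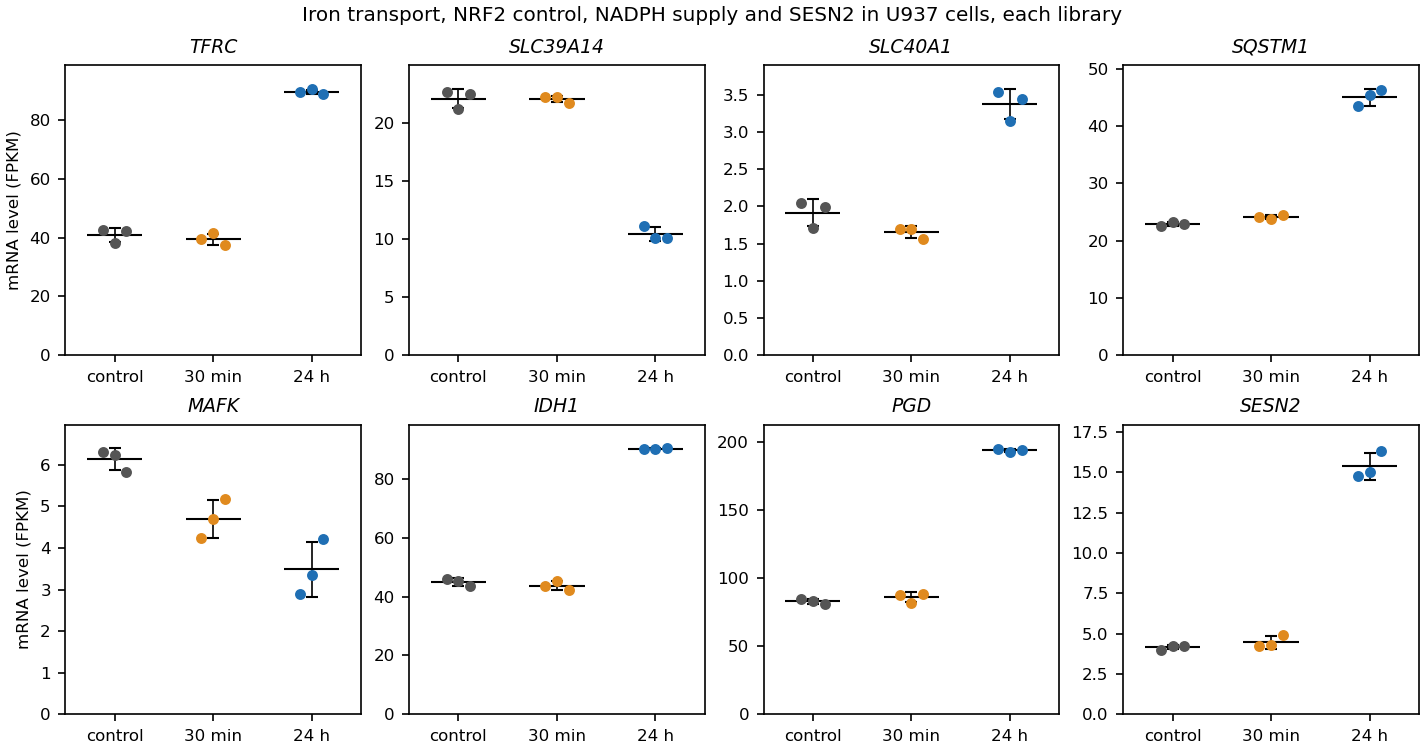
mRNA level in FPKM (vertical axes, from 0) of TFRC, SLC39A14, SLC40A1, SQSTM1, MAFK, IDH1, PGD and SESN2 in the 3 libraries of control, matrine 30 min and matrine 24 h; lines are means and bars 1 SD. The 8 genes were picked from those called at 24 h against control, so the gap between these groups is no separate result. The 24 h libraries lie above the control libraries in 6 genes and below them in SLC39A14 and MAFK.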

How the data were processed

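RNA was made into libraries with a VAHTS mRNA-seq kit; the study's methods name poly(A) isolation or rRNA removal, and paired-end sequencing. Per the labels, the submitters' processing notes list cutadapt 1.9.1, HISAT2 2.0.1 and HTSeq 0.6.1. Those notes name GRCh37 and the methods hg38, so the build behind the values is open, and the coordinates printed here are those of GENCODE release 44 on GRCh38 and serve to locate genes only. The authors deposited unnormalized counts per gene for each library, and FPKM values that the authors computed beside them; the annotation, the strand setting and the treatment of reads with more than 1 match are not given in the sources used here.

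Of 57905 identifiers, 51996 were matched to a symbol. Genes with a mean FPKM above 1 over the 6 libraries compared were tested with edgeR 4.0.16 (R 4.3.3), using TMM factors and the quasi-likelihood test in 1 fit of 9 libraries; standard errors are log2 fold changes divided by the square root of F. Alternatives used DESeq2 1.42.0, limma 3.58.1 on log2(FPKM + 0.1) or log2(FPKM + 1), other scaling, filters and folds, a replicate block and each library left out. The procedure was also run on simulated counts drawn with the spread that edgeR fitted, with few genes changed. In the real data 63.3% of genes passed the adjusted p at 24 h, so that run does not check the scaling there. Replicate numbers did not pair the libraries. The members and lists were chosen with earlier results of these data known; the naming rule took the 10 members, up to 3 genes called in each direction per list with the largest fold, and the 3 nearest profiles of NFE2L2 and HMOX1. Of the listed symbols, SOD2 and NCOA4 were not matched and are not analysed here. Some genes that the naming rule took are not reported here.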

Additional observations from a re-analysis of the deposited data

Results flagged for a closer look

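The times of treatment were compared directly, 24 h with 30 min, in edgeR. By the adjusted p alone 7 of the 10 genes differed, beside 65.1% of all genes tested, and at 1.5-fold 1 was higher, beside 15.4%, and 1 lower, beside 11.5%, so these numbers are no result about the 10 as a group. For FTH1 the difference was 1.18 on the log2 scale (standard error 0.0679, adjusted p = 5.1e-12), with all 3 libraries of 24 h above all 3 of 30 min. For GCLM it was -1.06 (standard error 0.0961, adjusted p = 5.1e-09), with all 3 libraries of 24 h below all 3 of 30 min. The controls of both times were the same 3 libraries, and the 24 h comparison cannot tell treatment from time in culture.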

How the results depend on the processing

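FTH1 and GCLM at 24 h were called under every alternative run, against control and against 30 min. Members called lower at 24 h went from 1 to 2 by the addition of SRXN1 with DESeq2 size factors, with no filter and with TMM factors from all genes with a count (chosen after seeing the data), and lay between 1 and 2 when 1 library was left out (2 without 24 h replicate 3, control replicate 1 or control replicate 3). With no fold limit, members called were 4 higher and 3 lower at 24 h, 3 higher and 4 lower from 30 min to 24 h, and 0 higher and 1 lower at 30 min. The pathway genes called were then, of 114 tested, 43 higher and 44 lower at 24 h, 43 and 49 from 30 min to 24 h, and 1 lower at 30 min. Of all genes tested, 63.3% were called in either direction with no fold limit at 24 h, 65.1% from 30 min to 24 h and 1.62% at 30 min. At 2-fold the pathway genes called were 4 higher and 3 lower at 24 h and 5 and 1 from 30 min to 24 h. Of all 11981 genes tested from 30 min to 24 h, 777 were higher and 345 lower at 2-fold. On counts in place of FPKM, the FTH1 share differed by 4.37 percentage points at 24 h against control, 4.23 against 30 min and 0.145 at 30 min. Leaving out 1 library gave 1.98 to 2.08, 1.91 to 2.02 and 0.0291 to 0.107 (the last without 30 min replicate 2) percentage points. Signs at 30 min turned, all near 0, when 1 library was left out: the log2 fold change lay between -0.21 and 0.0064 for HMOX1 (highest without 30 min replicate 2), between -0.0806 and 0.046 for NFE2L2 (above 0 without 30 min replicate 3 or control replicate 1), between -0.0382 and 0.0833 for NQO1 (lowest without 30 min replicate 1) and between -0.16 and 0.0274 for SLC7A11 (highest without control replicate 3). Over all genes at 24 h, calls were 1820 higher and 1344 lower, 869 and 808 at a mean FPKM above 5, 3794 and 3824 with no fold limit and 765 and 355 at 2-fold; at a mean FPKM above 5 HMOX1, SLC7A11 and SRXN1 were not tested. From 30 min to 24 h the lower share of calls was 42.8%, 32.6% when scaled by library totals alone, 50.2% with DESeq2 size factors and 49.9% with TMM factors from all genes; at 24 h against control the latter 2 gave 1605 higher and 1613 lower, and 1571 and 1652. Genes higher at 30 min numbered 11, and 18 without 30 min replicate 2. Libraries with the same replicate number did not deviate together (r -0.263 to 0.127 in 9 pairs, of which 1 was above 0.1, against -0.241 to 0.261 in 18 other pairs), and the replicate block left the called members as they were, with 1815 genes higher and 1343 lower at 24 h. The cause of these shifts was not tested. The fewest counts were those of HMOX1 (162 to 219 per library) and SRXN1 (163 to 278).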
